A study of Homo sapiens with 36 samples.

Results

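The genes described here are 32 enzymes and regulators of sterol and fatty acid synthesis, taken by name from the 19014 genes of the table of normalized counts. They comprise 18 enzymes of the sterol branch, 8 enzymes of the fatty acid and glycerolipid branch, and 6 regulators and sterol carriers. All 32 passed the filter on low values (a normalized count of 10 or more in 9 or more of the 36 libraries), which 15819 genes passed. The RNA came from H446, a long-established cell line of human small-cell lung cancer and of its SCLC-N subtype, which is marked by NEUROD1, a transcription factor of neurons and endocrine cells. Control clones 3, 10 and 13 carried a non-targeting guide RNA, and clones 12, 15 and 2-1 were NEUROD1 knockouts made with guide #297. Each clone received 1 µM JQ1, a BET bromodomain inhibitor that competes with acetylated histones, or DMSO for 24 h, and gave 3 libraries per treatment. All clones grew in RPMI with heat-inactivated fetal bovine serum. Each genotype was thus represented by 3 clones of 1 line, and all knockout clones came from the same guide. The question was how gene expression differed with NEUROD1 loss and with JQ1.

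Cells make cholesterol from acetyl-CoA through mevalonate, isoprenoid diphosphates and squalene, and they make fatty acids from the same acetyl-CoA through malonyl-CoA. Transcription of both branches is driven by the membrane-bound factors SREBP-1 and SREBP-2, the products of SREBF1 and SREBF2. SCAP escorts them to the Golgi for cleavage when sterols are scarce, and the INSIG proteins hold SCAP in the endoplasmic reticulum when sterols are plentiful. Because RNA was measured in bulk, fewer cells that express a gene and less RNA per cell cannot be told apart.

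The libraries held 13282337 to 18890506 reads apart from 1, the first JQ1 library of knockout clone 12, with 31825795. NEUROD1 had 4740 to 9169 reads per library in control clones and 0 to 10 in knockout clones. The library of 31825795 reads stood apart: its lung epithelial markers summed to 59810 normalized counts and its blood cell markers to 11850, against at most 103.9 and 22.98 in any other library. Of the 32 genes, 15 stood more than 1.5 times above the other 2 libraries of that clone and treatment, led by CYP51A1 (22011 against 2305 normalized counts, a ratio of 9.55) and SC5D (a ratio of 3.91). Fold changes in JQ1 libraries of knockout clones, and their adjusted p, are therefore given with and without this library. Responses of control clones do not use it, but their test shares its spread. The 5 neuroendocrine markers were INSM1, CHGA, SYP, NCAM1 and NEUROD1, the gene knocked out. Their sum was 19660 to 24900 normalized counts in control and 2401 to 4806 in knockout DMSO libraries. In these, NEUROD1 had a median of 6209 in control and 0 in knockout clones, a fall that the knockout builds in. INSM1, CHGA and SYP had medians of 3069, 3377 and 2274 in control and 45.7, 15.4 and 87.6 in knockout clones. NCAM1 had 8487 and 4274. The 3 stromal markers measured (COL1A1, COL1A2 and DCN) summed to 1903 to 6965 in control and 16470 to 31090 in knockout DMSO libraries, mostly COL1A2. The part of these marker differences in the results was not tested. Markers of lipid-making cell types (ADIPOQ, PLIN1 and ALB) did not exceed 1.23 FPKM.

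Promoter sequences were matched in RefSeq (GRCh38.p14) for 28 of the 32 genes, with 40 start sites. ACAT2, FDFT1, SQLE and FASN were not matched. The bases before the start are shown for SREBF2, for HMGCS1, MVD and MSMO1 as sterol enzymes that fell in the knockout clones, for INSIG1 and SCD, which had the lowest knockout levels relative to control, and for SREBF1, which did not fall. They were chosen after the values were seen. Each runs 5′ to 3′ on the strand of the gene and ends before the first annotated exon base. Capitals mark CCAAT or its complement ATTGG, the box bound by NF-Y, and the letters TCACNCCAC, a core of the sterol regulatory element.
SREBF2 (chr22:41832855-41833078, plus strand): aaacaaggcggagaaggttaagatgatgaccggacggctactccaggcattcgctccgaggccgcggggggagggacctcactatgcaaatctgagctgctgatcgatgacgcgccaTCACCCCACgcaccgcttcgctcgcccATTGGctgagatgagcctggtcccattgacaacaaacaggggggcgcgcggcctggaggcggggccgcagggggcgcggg
HMGCS1 (chr5:43313513-43313662, minus strand): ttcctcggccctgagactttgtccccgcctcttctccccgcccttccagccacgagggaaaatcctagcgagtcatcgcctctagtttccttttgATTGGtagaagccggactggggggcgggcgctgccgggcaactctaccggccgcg
MVD (chr16:88663162-88663341, minus strand): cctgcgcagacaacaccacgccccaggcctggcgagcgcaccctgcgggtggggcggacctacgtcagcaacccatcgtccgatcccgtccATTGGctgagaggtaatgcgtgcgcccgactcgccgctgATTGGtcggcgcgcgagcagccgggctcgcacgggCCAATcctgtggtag
MSMO1 (chr4:165327419-165327622, plus strand): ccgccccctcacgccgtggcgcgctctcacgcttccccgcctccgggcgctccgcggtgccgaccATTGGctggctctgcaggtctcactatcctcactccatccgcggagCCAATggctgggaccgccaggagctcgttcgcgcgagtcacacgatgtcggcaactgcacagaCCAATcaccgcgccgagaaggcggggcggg
INSIG1 (chr7:155297628-155297775, plus strand): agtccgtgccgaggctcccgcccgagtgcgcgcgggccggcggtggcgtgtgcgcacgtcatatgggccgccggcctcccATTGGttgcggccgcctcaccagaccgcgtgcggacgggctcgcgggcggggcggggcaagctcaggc
SCD (chr10:100346983-100347123, plus strand): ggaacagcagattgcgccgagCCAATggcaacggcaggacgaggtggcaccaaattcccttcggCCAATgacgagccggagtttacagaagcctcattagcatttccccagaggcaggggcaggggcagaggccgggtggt
SREBF1 (chr17:17837003-17837236, minus strand): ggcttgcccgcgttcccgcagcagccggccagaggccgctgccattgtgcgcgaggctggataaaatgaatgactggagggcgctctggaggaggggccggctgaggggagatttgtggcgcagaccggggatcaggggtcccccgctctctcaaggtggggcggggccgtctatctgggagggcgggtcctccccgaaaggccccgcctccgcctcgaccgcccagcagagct
The shown stretch of SREBF2 held the element and 1 box, those of MVD and MSMO1 held 3 boxes each, that of SCD 2, those of HMGCS1 and INSIG1 1 each, and that of SREBF1 none. The motif search covered the 250 bases before each RefSeq start on both strands, which for some genes, such as SCD and HMGCS1, extend past the first exon base at which the printed stretch ends. In these windows CCAAT stood in 57.5% of the 40 promoters and in 32% of all 35116 promoters of that length. By gene, it stood in a window of 13 of 15 sterol enzymes, 3 of 6 regulators and 3 of 7 fatty acid enzymes. TCACNCCAC stood in 2.5% of the 40, that of SREBF2 alone, and in 0.883% of all. Basic helix-loop-helix factors, NEUROD1 among them, bind E-boxes. The E-box CAGATG stood in 5.0% of the 40 promoters, those of LSS and FADS2, and in 12.2% of all, and CAGCTG in 15.0% and 14%. These are counts of letters in a short window, and no binding was measured.

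In DMSO, 16 of the 32 genes were lower in the knockout clones and none was higher (limma, adjusted p under 0.05), where 6.23% of all genes tested were lower and 6.32% higher. At an unadjusted p under 0.05, 23 were lower and 0 higher. The share of all genes at that looser cut is not given here, so this count has no background. EdgeR called 14 lower and 0 higher (5.66% and 5.97% of all genes). A constant prior called 10 lower and 0 higher (5.24% and 5.48%). Those that fell were 10 of 18 sterol enzymes, 3 of 6 regulators and 3 of 8 fatty acid enzymes. The median log2 fold change was -1.15 in the sterol branch, -0.90 in the regulators and -0.70 in the fatty acid branch, and 0.0078 over all genes tested. The clone means of the genotypes did not overlap for 24 genes, each lower in knockout, against 17.1% of all genes lower and 17.3% higher without overlap.

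**Figure D1:**
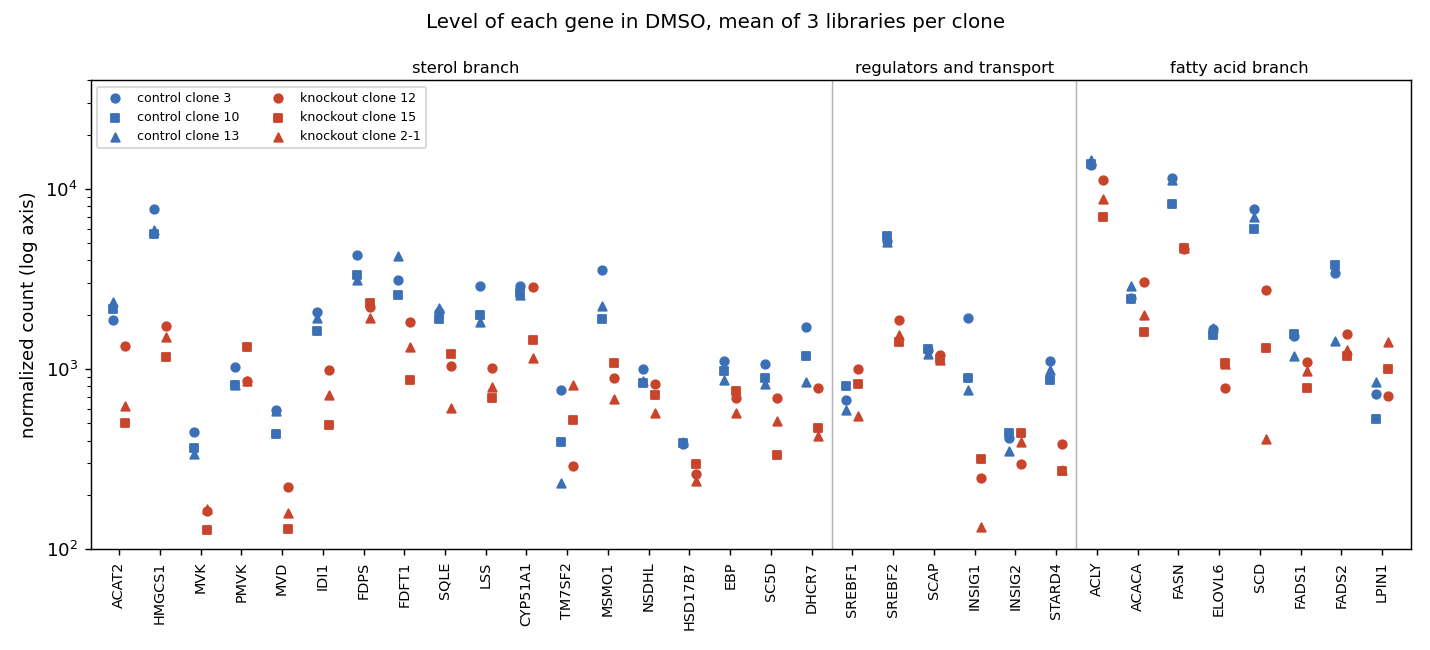
Normalized counts in DMSO on a log axis for the 32 genes by branch; each point is the mean of 3 libraries of 1 clone, blue for control and red for knockout clones. The red points of HMGCS1 and SREBF2 lie below all of their blue points, whereas those of SREBF1, TM7SF2 and LPIN1 overlap them.

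The sterol branch begins with acetyl-CoA units joined by ACAT2 and HMGCS1. HMGCS1, HMG-CoA synthase, read 7723, 5631 and 5915 normalized counts in control clones 3, 10 and 13 and 1730, 1168 and 1497 in knockout clones 12, 15 and 2-1, the order used throughout. Every knockout clone lay far below every control clone (log2 fold change -2.14 ± 0.20, SE, n = 3 clones per group, limma adjusted p = 0.001276). ACAT2, the cytosolic acetoacetyl-CoA thiolase, read 1860, 2140 and 2366 in control and 1348, 501 and 621 in knockout clones (-1.50 ± 0.36, adjusted p = 0.04041). Its knockout clone 12 sat closest to the controls without reaching them. Of its annotated exon bases, 52.3% are shared with SOD2, SOD2-OT1 and TCP1 on the other strand, so its value is uncertain. The sources used here do not say whether strand entered the counting.

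Of the mevalonate enzymes, MVD, which decarboxylates mevalonate diphosphate, read 595, 437 and 584 in control and 220, 129 and 159 in knockout clones, with no overlap (-1.69 ± 0.25, adjusted p = 0.007904). MVK, mevalonate kinase, fell as well (383 ± 56.9 against 153 ± 21.5, SD, log2 fold change -1.33 ± 0.21, adjusted p = 0.009183). PMVK, which acts between them, did not pass: it read 1027, 817 and 809 in control and 860, 1318 and 859 in knockout clones (0.17 ± 0.21, adjusted p = 0.6629). The PMVK groups overlapped, with clone 15 above all others. The isomerase IDI1 fell to 37.7% of control (-1.41 ± 0.26, adjusted p = 0.01731) and the farnesyl diphosphate synthase FDPS to 60.3% (-0.73 ± 0.16, adjusted p = 0.03315). FDPS has 8 annotated pseudogenes that could take some of its reads.

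The squalene and ring-closing enzymes fell together. FDFT1, squalene synthase, was at -1.34 ± 0.30 (adjusted p = 0.03387) and SQLE, squalene epoxidase, at -1.16 ± 0.26 (adjusted p = 0.03263) on the log2 scale. LSS, which closes the ring to lanosterol, read 2895, 1992 and 1826 in control and 1006, 692 and 795 in knockout clones (-1.42 ± 0.23, adjusted p = 0.01013). MSMO1, a methyl oxidase acting after lanosterol, read 3557, 1890 and 2237 in control and 893, 1078 and 677 in knockout clones (-1.51 ± 0.28, adjusted p = 0.01669). For both genes control clone 3 was the highest clone and no knockout clone reached a control clone.

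Of the 8 enzymes after lanosterol, MSMO1 alone passed the test. The other 7 ranged from -1.15 ± 0.33 for the reductase DHCR7 (adjusted p = 0.06841) to 0.28 ± 0.52 for the reductase TM7SF2 (adjusted p = 0.783). DHCR7, SC5D, HSD17B7, EBP and NSDHL did not overlap between genotypes, and none of them passed. TM7SF2 read 761, 391 and 232 in control and 290, 522 and 815 in knockout clones, a wide spread within both groups. CYP51A1, lanosterol demethylase, read 2884, 2633 and 2584 in control and 2858, 1452 and 1153 in knockout clones, so that knockout clone 12 lay among the controls (-0.68 ± 0.32, adjusted p = 0.2304). Other genes share 83.2% of its annotated exon bases, and its value is uncertain.

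Among the regulators, the SREBF genes differed in their calls. SREBF2 read 5132, 5466 and 5096 in control and 1868, 1404 and 1546 in knockout clones, far apart (-1.71 ± 0.14, adjusted p = 0.0008192). SREBF1 read 675, 808 and 594 in control and 997, 826 and 547 in knockout clones, which overlapped (0.16 ± 0.25, adjusted p = 0.7413, 95% interval -0.44 to 0.75). INSIG1, itself a classical SREBP target, read 1918, 888 and 760 in control and 247, 318 and 133 in knockout clones, with control clone 3 well above the rest (-2.31 ± 0.45, adjusted p = 0.01924). STARD4, a cytosolic sterol carrier, read 1101, 862 and 983 in control and 381, 271 and 276 in knockout clones, with no overlap (-1.67 ± 0.19, adjusted p = 0.003146). SCAP and INSIG2 did not pass, with 95% intervals of -0.41 to 0.15 and -0.60 to 0.38 on the log2 scale.

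In the fatty acid branch the largest fold belonged to SCD, the desaturase that makes oleate. SCD read 7752, 5947 and 6995 in control and 2741, 1302 and 408 in knockout clones, so that the knockout clones spread widely among themselves (-2.60 ± 0.63, adjusted p = 0.04133). FASN, fatty acid synthase, read 11519, 8249 and 11256 in control and 4659, 4690 and 4690 in knockout clones (-1.13 ± 0.16, adjusted p = 0.006401). Its knockout clones were nearly equal in normalized counts but not in FPKM, at 60.2, 81.2 and 78.6. ELOVL6, which elongates palmitate, read 1659, 1536 and 1691 in control and 782, 1075 and 1064 in knockout clones, with no overlap (-0.76 ± 0.16, adjusted p = 0.02856). ACLY, which supplies cytosolic acetyl-CoA to both branches, did not overlap between the groups and missed the threshold (-0.65 ± 0.19, adjusted p = 0.06896).

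The other fatty acid enzymes did not pass. ACACA, acetyl-CoA carboxylase, was at -0.28 ± 0.24, and the desaturases of polyunsaturated fatty acids FADS1 and FADS2 at -0.58 ± 0.19 and -0.99 ± 0.37. FADS1 and FADS2 share part of their annotated exons. LPIN1, a phosphatidate phosphatase, read 723, 528 and 845 in control and 704, 994 and 1413 in knockout clones, which overlapped (0.54 ± 0.30, adjusted p = 0.2949). It was the 1 gene of its branch with a positive value.

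**Figure D2:**
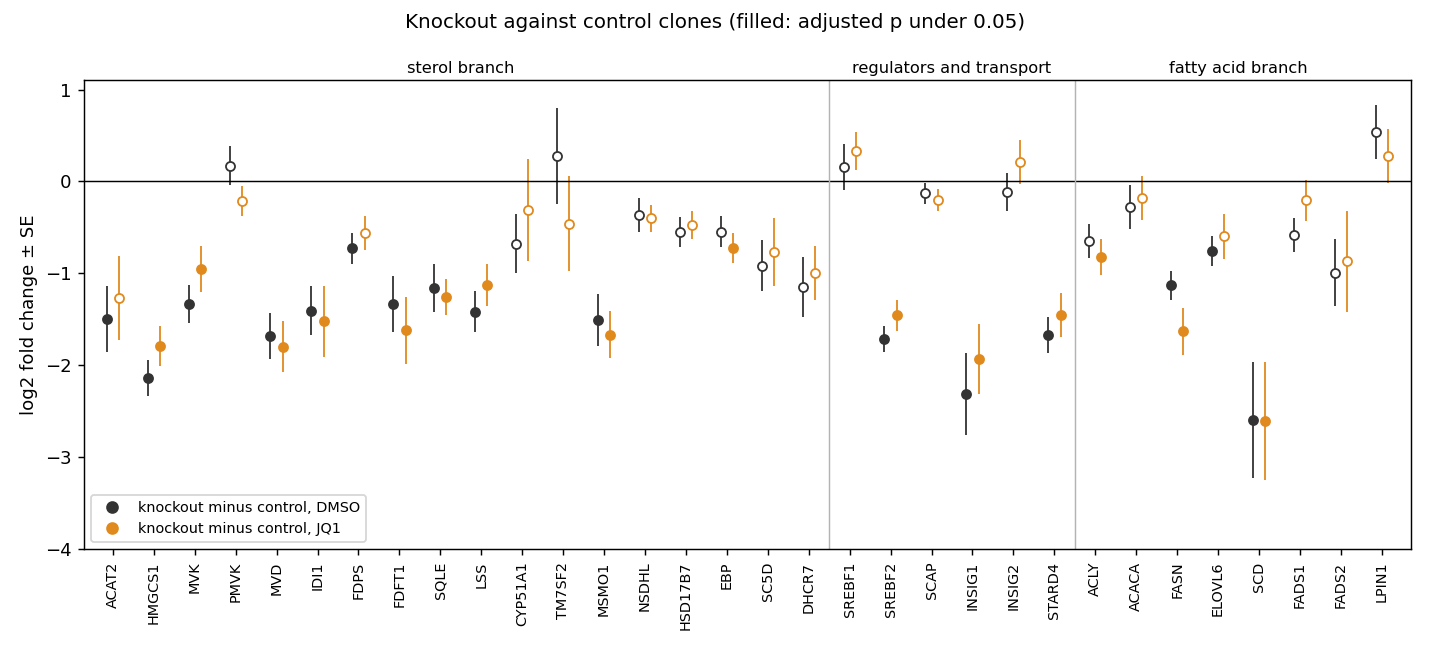
Log2 fold change of knockout against control clones with its standard error for each gene by branch, in DMSO (dark) and in JQ1 (orange, all libraries); filled points passed the adjusted threshold. In DMSO the filled points lie between -2.60 (SCD) and -0.73 (FDPS), and no filled point of either treatment lies above 0.

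The branches were compared clone by clone. Relative to the mean of the control clones in DMSO, the sterol median was -0.67 in knockout clone 12, -1.27 in clone 15 and -1.25 in clone 2-1, and the fatty acid median -0.56, -0.92 and -0.64. The sterol minus fatty acid difference was -0.11, -0.35 and -0.62 in these clones and 0.10, -0.0084 and -0.17 in control clones 3, 10 and 13. Clone 12 thus lay within the range of the control clones in this difference, and clones 15 and 2-1 lay below it. The regulators were at -0.90, -0.96 and -1.04. No test was applied to these medians.

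**Figure D3:**
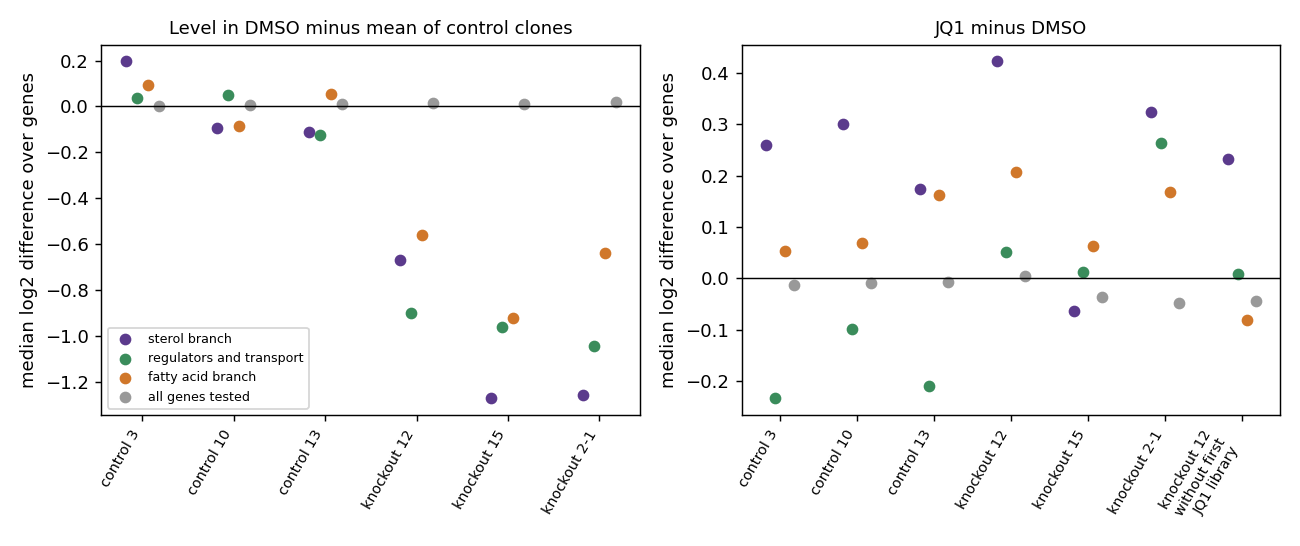
Median log2 difference over the genes of each branch and over all genes tested, per clone: level in DMSO minus the mean of the control clones (left) and JQ1 minus DMSO (right, with knockout clone 12 also without its first JQ1 library). On the left the branch medians of the knockout clones lie between -1.27 and -0.56; on the right the sterol median is above 0 in all clones but knockout clone 15 (-0.063).

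Fewer genes were called in DMSO with 1 control clone fewer. Without control clone 3, 10 or 13 in turn, 9, 8 and 9 genes were lower, where 3.95%, 2.92% and 3.53% of all genes were. Without knockout clone 12, 15 or 2-1, 19, 12 and 13 were lower, where 6.45%, 5.19% and 5.66% of all genes were. HMGCS1, MVK, MVD, LSS, SREBF2, STARD4 and FASN kept their call under all 21 alternatives. ACAT2, IDI1, FDPS, FDFT1, SQLE, ELOVL6 and SCD lost theirs on leaving out any 1 control clone, whichever it was, INSIG1 without control clone 10 and MSMO1 without control clone 13. Of the knockout clones, leaving out clone 15 ended the calls of ACAT2, FDPS, FDFT1 and SCD, clone 2-1 those of ACAT2, FDPS and FDFT1, and clone 12 that of FDPS. Over all alternatives the log2 fold change stayed between -1.65 and -1.14 for IDI1 and between -0.88 and -0.61 for ELOVL6, and no called gene changed its direction.

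Under JQ1, 15 genes were lower in knockout clones and 0 higher, where 5.59% of all genes tested were lower and 6.37% higher. At an unadjusted p under 0.05, 21 were lower and 0 higher, again without a share of all genes at that cut. EdgeR called 10 lower and 0 higher (3.96% and 4.26% of all genes). A constant prior called 9 lower and 0 higher (4.68% and 5.08%). Without the aberrant library 17 were lower and 0 higher, against 5.53% and 5.63% of all genes. Of the 16 genes called in DMSO, 13 were also called in JQ1, and 14 without the library. The sharing of calls over all genes tested is not given here, so it may not be particular to these genes. Clone means did not overlap for 21 genes, each lower in knockout, against 15.5% of all genes lower and 18.6% higher.

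By branch, 9 sterol enzymes, 3 regulators and 3 fatty acid enzymes were lower in JQ1, and 12, 3 and 2 without the aberrant library. HMGCS1 read 7768, 6356 and 6234 in control and 2564, 1445 and 2090 in knockout clones (-1.79 ± 0.22, adjusted p = 0.003057; -1.88 and 0.001179 without the library); knockout clone 12 read 2032 without the library. FASN read 28280, 15973 and 17383 in control and 6885, 5073 and 7347 in knockout clones, with no overlap (-1.63 ± 0.25, adjusted p = 0.00852; -1.63 and 0.008453 without the library). SC5D, DHCR7 and FDPS passed only without the library (-0.98, -1.07 and -0.66, adjusted p = 0.04608, 0.04767 and 0.04845). ACLY passed only with it (adjusted p = 0.03708, and 0.09896 without). EBP passed in JQ1 with and without it (adjusted p = 0.03282 and 0.01603, -0.72 and -0.82 on the log2 scale) and not in DMSO.

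Leaving out clones again changed calls. Of the 15 calls, 7, 6 and 9 were kept without control clone 3, 10 or 13, and 14, 9 and 12 without knockout clone 12, 15 or 2-1. Over all genes tested, 885 were lower with every clone. This became 567, 417 and 524 without control clone 3, 10 or 13, and 875, 688 and 769 without knockout clone 12, 15 or 2-1. How many calls were kept over all genes is not given, so the loss may be general. Those of HMGCS1, MVD, SQLE, MSMO1, SREBF2 and FASN held under all 23 alternatives.

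JQ1 moved the genes in both directions. In the control clones 15 of 32 rose and 5 fell, where 23% of all genes tested rose and 24.9% fell. In the knockout clones 15 rose and 5 fell, against 23.9% and 25.7%; without the aberrant library 11 rose and 7 fell, against 26.2% and 30.2%. That library also enters the spread shared by both genotypes, and without it the control clones gave 15 rises and 6 falls, against 25.1% and 27.3%. With libraries scaled to equal totals, 10 rose and 7 fell in control clones, against 18.8% and 29% of all genes, and 11 and 6 in knockout clones, against 20.1% and 29.9%. With a spread from control clones alone, 17 rose and 8 fell in control clones (28.3% and 30.4% of all genes), with or without the aberrant library. On FPKM, 10 rose and 7 fell in control clones, against 17.3% and 25.8%, and 11 and 4 in knockout clones, against 18.4% and 27.1%. Control and knockout clones shared 12 of their 15 rises and 4 of their 5 falls, and without the library 8 rises (of 15 and 11) and 5 falls (of 6 and 7). How far all genes tested shared their calls is not given, so this sharing may be general.

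In the sterol branch, 9 of 18 enzymes rose and 1 fell in control clones (median 0.27), and 9 rose and 2 fell in knockout clones (0.21, or 8, 4 and 0.19 without the aberrant library). IDI1 had the largest response. It went from 2067, 1619 and 1918 in DMSO to 6491, 4360 and 4912 in JQ1 in control clones (1.48 ± 0.11, adjusted p = 5.741e-05) and from 981, 486 and 721 to 3193, 1034 and 1772 in knockout clones (1.36 ± 0.11, adjusted p = 7.708e-05; 1.36 and 3.016e-05 without the library). FDPS, the next enzyme, fell from 4311, 3334 and 3097 to 2793, 2219 and 2086 in control clones (-0.59 ± 0.075, adjusted p = 0.0004462) and from 2195, 2320 and 1919 to 1980, 1622 and 1303 in knockout clones (-0.43 ± 0.075, adjusted p = 0.00211; -0.52 and 5.267e-05 without the library). In knockout clone 12, FDPS read 1555 in JQ1 without the library. IDI1 and FDPS, adjacent enzymes, moved in opposite directions in all 6 clones.

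MVD rose from 595, 437 and 584 to 908, 647 and 743 in control clones (0.50 ± 0.097, adjusted p = 0.00366). In knockout clones its rise was lost without the aberrant library (0.38 ± 0.097, adjusted p = 0.01189; 0.21 and 0.1735 without the library). LSS rose from 1006, 692 and 795 to 1558, 1032 and 1423 in knockout clones (0.68 ± 0.067, adjusted p = 0.0001426; 0.68 and 5.267e-05 without the library) and by 0.40 ± 0.067 in control clones (adjusted p = 0.001784). Both rises of LSS were seen in each clone. MVK rose from 163, 128 and 167 to 241, 180 and 294 in knockout clones (0.61 ± 0.097, adjusted p = 0.001303; 0.53 and 0.003133 without the library) and was at 0.23 ± 0.097 in control clones (adjusted p = 0.07828). In knockout clone 12, MVK read 200 in JQ1 without the library.

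SQLE, SC5D and DHCR7 rose in both genotypes. SQLE was at 0.49 ± 0.12 in control clones and above 0 in 2 of 3 knockout clones (0.58, -0.023 and 0.62; 0.39 ± 0.12, adjusted p = 0.02312; 0.38 and 0.01772 without the library). EdgeR, and the fits without knockout clone 12 or 2-1, did not call it in knockout clones. SC5D was at 0.38 ± 0.11 in control clones, and its value in knockout clones was smaller without the aberrant library (0.53 ± 0.11, adjusted p = 0.004914; 0.31 and 0.003075 without the library). DHCR7 was at 0.40 ± 0.13 in control clones and at 0.45, 0.21 and 0.99 in the knockout clones (0.55 ± 0.13, adjusted p = 0.009094; 0.48 and 0.01761 without the library). Without the aberrant library, DHCR7 was at 0.23 in knockout clone 12. The control calls of SC5D and DHCR7 were lost on leaving out any 1 control clone, with equal totals and in edgeR. FDFT1, MSMO1 and TM7SF2 passed in control clones (0.35, 0.31 and 0.44, limma adjusted p = 0.01135, 0.02515 and 0.03225). The calls of MSMO1 and TM7SF2 were lost with equal totals, on FPKM, with a constant prior and in edgeR. That of MSMO1 was also lost on leaving out any 1 control clone or replicate 2. That of TM7SF2 was also lost without control clone 3 or 10 or replicate 1. FDFT1 lost its call without control clone 3 or 10. HMGCS1 (0.43 ± 0.064, adjusted p = 0.0009396; 0.34 and 0.001793 without the library) and HSD17B7 (0.26 ± 0.078, adjusted p = 0.02345; 0.26 and 0.01659 without the library) passed in knockout clones. PMVK fell in knockout clones, from 860, 1318 and 859 to 660, 843 and 830 (-0.36 ± 0.10, adjusted p = 0.0211; -0.35 and 0.01614 without the library), and was at 0.025 ± 0.10 in control clones. The knockout call of HSD17B7 was lost under 7 of 25 alternatives, among them equal totals, FPKM and the fit without knockout clone 2-1. That of PMVK was lost under 5 of 25, among them a constant prior and the fit without knockout clone 15. Without the aberrant library CYP51A1 was called lower in both genotypes (-0.29 and -0.28, adjusted p = 0.003007 and 0.00325) and EBP in knockout clones (-0.25, adjusted p = 0.01042). With it CYP51A1 passed in neither, and knockout clone 12 read 8873 in JQ1 with the library and 2305 without. ACAT2 and NSDHL passed in neither genotype, with or without it.

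**Figure D4:**
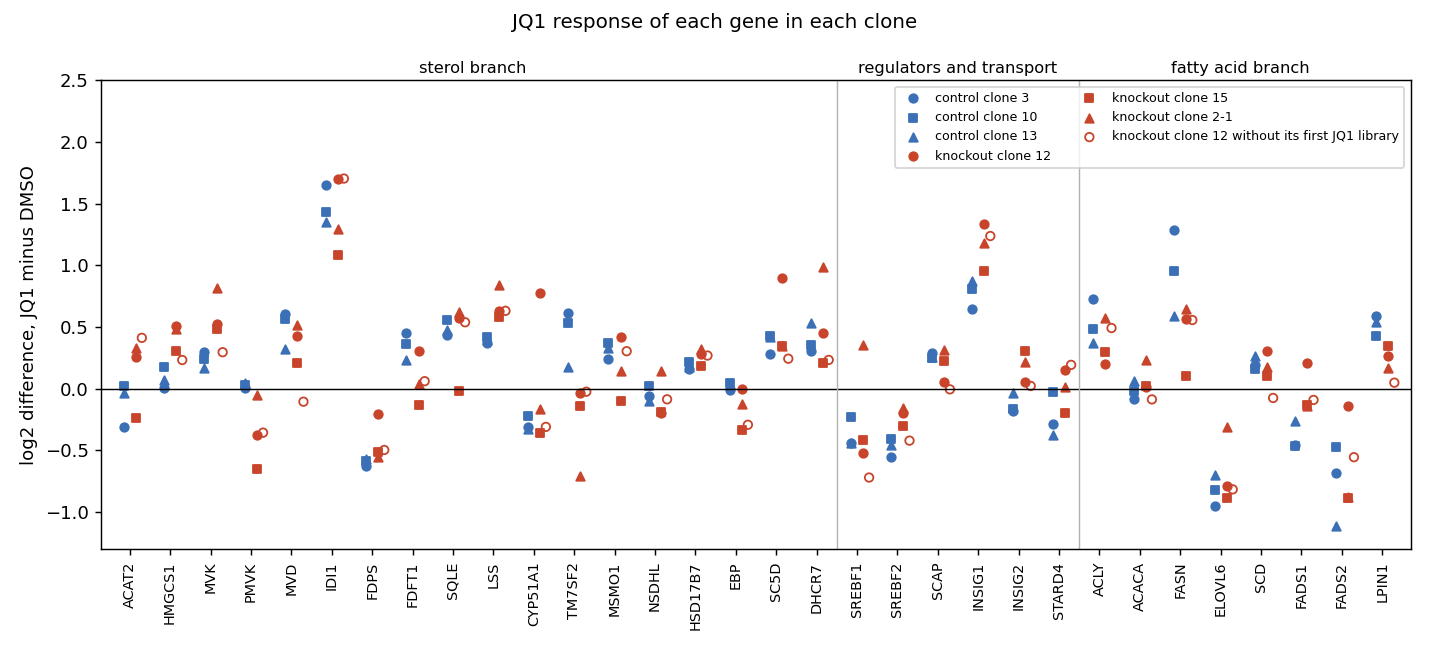
Log2 difference of JQ1 minus DMSO for each gene and clone; blue control clones, red knockout clones, and open circles for knockout clone 12 without its first JQ1 library. IDI1 lies between 1.09 and 1.70 in every clone and ELOVL6 between -0.95 and -0.31, and the filled and open circles of CYP51A1 in knockout clone 12 stand at 0.78 and -0.31.

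Among the regulators, INSIG1 rose and SREBF2 fell in both genotypes. INSIG1 went from 1918, 888 and 760 to 3008, 1554 and 1393 in control clones (0.78 ± 0.089, adjusted p = 0.0002825) and from 247, 318 and 133 to 627, 616 and 304 in knockout clones (1.16 ± 0.089, adjusted p = 6.308e-05; 1.13 and 1.908e-05 without the library). SREBF2 went from 5132, 5466 and 5096 to 3494, 4113 and 3720 in control clones (-0.47 ± 0.059, adjusted p = 0.0004364) and from 1868, 1404 and 1546 to 1665, 1140 and 1389 in knockout clones (-0.22 ± 0.059, adjusted p = 0.01569; -0.29 and 0.004099 without the library). In knockout clone 12, SREBF2 read 1394 in JQ1 without the library. Its knockout call was lost on FPKM, with a spread from knockout clones alone, and without knockout clone 15, replicate 2 or replicate 3. The transcripts of the factor and of its known target moved in opposite directions in all 6 clones.

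SCAP rose from 1279, 1295 and 1212 to 1557, 1541 and 1462 in control clones (0.27 ± 0.067, adjusted p = 0.0119). That call was lost on FPKM and on leaving out any 1 control clone. In knockout clones SCAP went from 1192, 1141 and 1124 to 1235, 1333 and 1393 (0.20 ± 0.067, adjusted p = 0.03971, or 0.18 and 0.05304 without the library). The knockout call was lost under 16 of 25 alternatives, the fit without the aberrant library among them. SREBF1 was at -0.37 ± 0.15 in control clones (adjusted p = 0.07827) and did not pass in either genotype (knockout -0.20 ± 0.15, adjusted p = 0.3188; -0.26 and 0.2146 without the library). STARD4 and INSIG2 passed in neither genotype.

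In the fatty acid branch, FASN, ACLY, LPIN1 and SCD rose in control clones, and the elongase ELOVL6 and the desaturases FADS1 and FADS2 fell. The branch median was 0.095 there, 0.14 in knockout clones and 0.062 in the latter without the aberrant library. FASN rose from 11519, 8249 and 11256 to 28280, 15973 and 17383 in control clones (0.94 ± 0.14, adjusted p = 0.0009512) and from 4659, 4690 and 4690 to 6885, 5073 and 7347 in knockout clones (0.44 ± 0.14, adjusted p = 0.03016; 0.44 and 0.02237 without the library), where clone 15 moved least. ACLY rose in control clones (0.53 ± 0.092, adjusted p = 0.002106) and in knockout clones (0.36 ± 0.092, adjusted p = 0.01235, or 0.46 and 0.001279 without the library). The knockout call of FASN was lost with equal totals, with a constant prior and in edgeR. It was also lost without control clone 10, knockout clone 12 or 2-1, or replicate 3. That of ACLY was lost in edgeR and without knockout clone 2-1, replicate 2 or replicate 3.

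ELOVL6 fell from 1659, 1536 and 1691 to 859, 868 and 1041 in control clones (-0.82 ± 0.11, adjusted p = 0.0005894) and from 782, 1075 and 1064 to 452, 581 and 856 in knockout clones (-0.66 ± 0.11, adjusted p = 0.001626; -0.67 and 0.0009235 without the library). FADS2 fell from 3393, 3771 and 1433 to 2120, 2709 and 664 in control clones (-0.76 ± 0.16, adjusted p = 0.005546) and from 1562, 1180 and 1265 to 1544, 638 and 688 in knockout clones (-0.63 ± 0.16, adjusted p = 0.01193; -0.77 and 0.0006347 without the library), where clone 12 read 1062 without the aberrant library. FADS1 fell in control clones (-0.40 ± 0.087, adjusted p = 0.006231) and did not pass in knockout clones (-0.020 ± 0.087, adjusted p = 0.8651; -0.12 and 0.1244 without the library). SCD passed in control clones (0.20 ± 0.061, adjusted p = 0.02479), but not with equal totals, on FPKM, in edgeR or DESeq2, or without any 1 control clone. The knockout calls of SCD (0.19 ± 0.061, adjusted p = 0.02872; 0.066 and 0.3706 without the library) and LPIN1 (0.26 ± 0.068, adjusted p = 0.01314; 0.19 and 0.05276 without the library) were lost without the aberrant library. The knockout call of FADS2 was lost in edgeR and without knockout clone 15, knockout clone 2-1 or replicate 3. ACACA passed in neither genotype.

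Leaving out single clones changed part of the JQ1 calls. In control clones, 13, 11 and 15 of the 20 calls were kept without control clone 3, 10 or 13, and all 20 without any 1 knockout clone. In knockout clones, 17, 15 and 12 of 20 were kept without knockout clone 12, 15 or 2-1, and 18, 16 and 18 without control clone 3, 10 or 13. Over all genes tested, 3936 fell and 3636 rose in control clones. Without control clone 3, 10 or 13 there were 2687, 2596 and 2767 falls and 2439, 2349 and 2391 rises. In knockout clones 4070 of all genes fell and 3775 rose. Without knockout clone 12, 15 or 2-1 there were 4323, 3074 and 3501 falls and 3801, 3013 and 3340 rises. How many calls were kept over all genes is not given. The calls of IDI1, FDPS, LSS, INSIG1 and ELOVL6 held under all 25 alternatives in both genotypes.

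The JQ1 response was compared between genotypes as the knockout minus control difference of the log2 changes. None of the 32 genes passed in limma, where 1.55% of all genes tested passed in each direction, and edgeR on whole reads called 0 (0.0443% of all genes lower and 0.0316% higher). At an unadjusted p under 0.05, 4 genes had a negative difference (PMVK, TM7SF2, FASN and LPIN1) and 7 a positive one (HMGCS1, MVK, LSS, SREBF2, INSIG1, INSIG2 and FADS1). The share of all genes at that looser cut is not given here, so these counts show nothing particular to the 32 genes. DESeq2 called HMGCS1 (0.39, adjusted p = 0.02403) and TM7SF2 (-0.76, adjusted p = 0.02424), 1 in each direction where 3.67% of all genes were lower and 2.92% higher. With single libraries in limma, correlated within a clone, 3 were negative and 7 positive, where 12.5% of all genes were lower and 13.5% higher.

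Without the aberrant library FDFT1 passed (-0.36, adjusted p = 0.04673), where 3.61% of all genes tested were lower and 3.75% higher. Without knockout clone 12, FDFT1 and TM7SF2 passed (adjusted p = 0.04672 and 0.04065, 3.86% of all genes lower and 3.81% higher), and without clone 2-1 PMVK did (adjusted p = 0.04211, 2.89% and 2.71%). TM7SF2 had the largest difference: its JQ1 response was 0.61, 0.53 and 0.17 in control and -0.038, -0.14 and -0.71 in knockout clones, with no overlap (difference -0.74 ± 0.20, adjusted p = 0.08197; -0.73 and 0.05753 without the library). The difference of FASN had a 95% interval of -0.96 to -0.051 (-0.50 ± 0.20, adjusted p = 0.1811; -0.51 and 0.1334 without the library). That of INSIG1 had an interval of 0.093 to 0.67 (0.38 ± 0.13, adjusted p = 0.1291; 0.35 and 0.08987 without the library). For IDI1 the interval was -0.48 to 0.25 (-0.12 ± 0.16, adjusted p = 0.7121; -0.12 and 0.6734 without the library).

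Levels per length, in FPKM, allowed genes to be ranked against each other. In control clones in DMSO the order began with FDPS (262 ± 40.6, SD), ACLY (228 ± 8.31), FASN (155 ± 23.3), FDFT1 (152 ± 40.6) and HMGCS1 (136 ± 22.8) and ended with MVK (15.5 ± 2.07), INSIG2 (12.0 ± 2.16) and LPIN1 (10.7 ± 1.40). The clone ranges of neighbours overlapped in 28 of 31 pairs there and in 30 of 31 in knockout clones. In knockout clones FDPS (150 ± 15.2) and ACLY (143 ± 28.2) again stood first, HMGCS1 (30.6 ± 4.71) moved from rank 5 to 11, SREBF2 from 10 to 18 and SCD from 9 to 22, and INSIG1 (5.53 ± 2.25) was last. SREBF2 ranged over 76.4 to 86.1 FPKM in control clones, above SREBF1 at 33.0 to 42.2. In knockout clones SREBF2 was at 22.6 to 25.5 and SREBF1 at 25.2 to 44.9, and their ranges met.

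Other genes of these pathways, in lists chosen with earlier results known, were counted in DMSO as well. Of all genes tested, 6.23% were lower and 6.32% higher there. Of 11 genes of the non-sterol isoprenoid arms and other sterol steps, such as GGPS1 and COQ2, limma called none lower or higher. Their median log2 fold change was -0.031. At an unadjusted p under 0.05, 1 was lower and 0 higher, a cut whose share of all genes is not given. Of 19 genes of sterol uptake, export and sensing, 2 were lower and 2 higher. The lipoprotein receptors VLDLR (4732 ± 1576 against 738 ± 230, log2 fold change -2.67 ± 0.34, adjusted p = 0.00456) and LRP8 (2123 ± 389 against 447 ± 231, log2 fold change -2.35 ± 0.35, adjusted p = 0.007915) fell, and NPC2, which carries cholesterol out of lysosomes, rose (148 ± 23.1 against 1006 ± 195, log2 fold change 2.76 ± 0.21, adjusted p = 0.0005707). The other gene that rose, NR1H3, the sterol-sensing receptor LXR alpha, was named after its value was seen. Of 24 other fatty acid and glycerolipid genes, 2 were lower and 2 higher: DGAT2, a triglyceride synthase, fell (488 ± 133 against 257 ± 27.6, log2 fold change -0.90 ± 0.23, adjusted p = 0.04896), as did the scarcely expressed THRSP, named after its value was seen. AGPAT2, an acyltransferase of glycerolipid synthesis, rose (117 ± 12.2 against 269 ± 78.8, log2 fold change 1.17 ± 0.26, adjusted p = 0.03124), as did ACSS2, a cytosolic acetyl-CoA synthetase (498 ± 36.01 against 791 ± 84.2, log2 fold change 0.67 ± 0.15, adjusted p = 0.03263). With JQ1, 6 of the 11, 4 of the 19 and 2 of the 24 fell in control clones and 2, 7 and 11 rose. Of all genes tested, 24.9% fell and 23% rose in control clones. In knockout clones 4, 3 and 3 fell and 3, 5 and 7 rose, against 25.7% and 23.9% of all genes. Without the aberrant library 4, 3 and 6 fell and 3, 4 and 10 rose, against 30.2% and 26.2%.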

How the data were processed

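The authors deposited a signal per gene, the count after division by the library's size factor, and FPKM values, with cutadapt, STAR, RSEM and build hg19 named in the submitters' processing notes and no versions or order given. The step of 1 read was recovered in every library, and 100% of the deposited signal values were whole reads within 1e-06. Libraries were stranded per the labels' protocols. The members and lists were chosen with earlier results of these data known. Libraries were averaged per clone on log2(normalized count + 1), so fold changes of low genes are understated, and clones were compared (n = 3 per genotype) with limma 3.58.1 in R 4.3.3 with a trended prior over 15819 genes, with Benjamini-Hochberg adjustment over all of them and a threshold of 0.05. P-values measure the spread between clones of 1 line. JQ1 responses were tested as differences within clones, with 1 spread over both genotypes. Fits of edgeR 4.0.16 and DESeq2 1.42.0 to the recovered reads, added up over the libraries of a clone and treatment, other scalings, filters of 50 or none, pseudocounts of 0.1 and 10, single libraries and leaving out clones, replicates or the aberrant library were alternatives. That library's agreement with its replicates was far below that of the others (a chi-square of 295.5 or more per degree of freedom, against 14.01 or less). Clone values are given for genes past the threshold with the largest fold change in each branch (up to 5 for genotype, 3 for JQ1), for SREBF1, SREBF2 and INSIG1, and for genes moving against their branch; other lists name up to 3 genes with a mean of at least 50 normalized counts. The tests were checked on simulated data. FPKM, as deposited, served to rank genes. Gene overlaps come from GENCODE on GRCh38 and are not positions in the authors' build. A few genes of these pathways are not reported here.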

Additional observations from a re-analysis of the deposited data

How the results depend on the processing

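No called gene changed direction. With a constant prior 10 genes were lower in knockout clones in DMSO and 9 in JQ1 (5.24% and 4.68% of all genes). With a spread from 1 genotype alone, 8 genes fell and 17 rose with JQ1 in control clones (30.4% and 28.3% of all genes), and 3 fell and 9 rose in knockout clones (18.4% and 16.7%). With that spread and without the aberrant library, chosen after seeing the data, 8 fell and 17 rose in control and 5 fell and 8 rose in knockout clones (24.4% and 21.1%). For the difference in response, single libraries called 3 lower and 7 higher without the replicate block (12.5% and 13.5% of all genes) and 3 and 7 with it (12.3% and 13.4%), and DESeq2 called 1 and 1 (3.67% and 2.92%). Leaving out a clone, a replicate number or the library gave 8 to 19 genes lower in DMSO and 6 to 17 lower in JQ1. Of all 15819 genes tested, 462 to 1020 and 417 to 875 were lower. With JQ1, 4 to 8 genes fell and 7 to 16 rose in control clones, where 2596 to 4648 and 2349 to 4318 of all genes did. In knockout clones 2 to 8 fell and 8 to 15 rose, where 3074 to 4781 and 3013 to 4141 of all genes did. There were 0 to 2 negative differences, where 0 to 611 of all genes had one. The fatty acid median changed sign for JQ1 in control clones on FPKM (-0.024) and for the difference in response, at 0.047 with all libraries, without knockout clone 12 (-0.079), the aberrant library (-0.045), control clone 13 (-0.018), replicate 1 (-0.017) or knockout clone 2-1 (-0.0061). The sterol median of that difference, 0.020, was negative without knockout clone 2-1 (-0.074), replicate 1 (-0.070), the aberrant library (-0.033) or knockout clone 12 (-0.0059), and with edgeR without the aberrant library, chosen after seeing the data, the sterol and fatty acid medians were -0.019 and -0.032. The cause of these shifts was not tested. Replicate numbers did not pair the libraries: same-numbered DMSO and JQ1 libraries of a clone correlated at -0.263 to 0.0954 over 18 pairs. Single libraries called 23 genes lower in DMSO with the replicate block, where 1836 of all 15819 genes tested were lower. They called 23 without it as well, where 1905 of all genes were lower. Standard errors of 0.12 to 0.63 (log2) between genotypes in DMSO limit what 3 clones can show.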
